A study of Mus musculus with 24 samples.

Results

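Solute carriers are membrane proteins that move nutrients, metals, vitamins, nucleotides and inorganic ions into cells and organelles. The 156 genes described here are the rows of the liver expression table whose names, after removal of a numbered suffix, begin with Slc and a digit, apart from 8 that the selection rule leaves out. They were found among 9049 genes in the table and among 164 rows with such names. The 8 omitted genes are the amino acid transporters Slc38a2, Slc38a3, Slc38a4, Slc3a2, Slc7a2, Slc43a1 and Slc1a2 and the bile acid transporter Slc10a1. The omission does not clear the set of amino acid transporters: 14 of the 156 are classed here as carriers of amino acids or peptides. Slc6a9 and Slc1a4 are among them. Some members of other classes also move amino acids, such as Slc17a8 and the glutamate carrier Slc25a22. A further 4 members are not carriers at all but proteins named after one, such as the scaffold protein Slc9a3r1. The rule uses gene names alone.

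Liver RNA came from 24 male C57BL/6J mice about 2 months old. The mice had been adapted to a control diet (Con) with 0.86% methionine, under a reversed light cycle with food taken away while the lights were on. At the return of food, Con mice received the same diet again, and methionine-restricted (MR) mice received one with 0.17% methionine. Neither diet contained cystine. The MR diet also held more glutamic acid than the Con diet, and its part in the diet differences was not tested. Livers were taken 3 h or 6 h later, which gave 4 groups of 6 mice: Con at 3 h, MR at 3 h, Con at 6 h and MR at 6 h. All mice were of one strain and one sex and had been without food through the light phase before. The 3 h and 6 h groups differ in hours since feeding and also in clock hour, so these cannot be told apart.

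As background, solute carriers fall into families by sequence, and members of a family often share a kind of substrate. Those of the plasma membrane set what a hepatocyte takes from blood. The Slc25 family carries metabolites across the inner mitochondrial membrane, Slc35 brings activated sugars into the endoplasmic reticulum and Golgi, Slc39 (ZIP) brings zinc and related metals into the cytosol, and Slc30 (ZnT) moves them out of it. The liver is known for its heavy use of carriers for glucose, fatty acids, organic anions and cations, and the intermediates of the urea cycle. Several amino acid transporter genes are known targets of ATF4, the transcription factor that is made when amino acids are short.

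Expression is given in units of the deposited score after TMM scaling, which sets libraries to a common level by a trimmed mean of their log ratios. Each library holds between 991702 and 995314 units before that scaling, so a unit is close to 1 millionth of a library. The number of reads behind a unit is unknown, and the precision given here rests on the spread between mice. The table keeps no gene with a mean under about 2.95 units, and 45 of the 156 members had a mean under 10, where rounding leaves few possible values. The members' means ran from 3.00 to 1199 units, and 19 were at 100 or more. Units are not divided by transcript length, so levels are compared within a gene and not between genes. Differences are log2 fold changes of the units plus 1, with adjusted p-values from limma over all 9049 genes.

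The tissue matched its label, with summed hepatocyte markers of 134900 to 181100 units in every mouse, and 3 libraries stood apart. Con mouse 4238 at 6 h had summed Kupffer cell markers of 933.9 units against at most 501.7 in the other 23 mice. Its stellate cell markers (639.1 units, next highest 500.9) and endothelial markers (256.5 units, next highest 251.1) were also the highest. In this mouse 9 members (5.77%) lay more than 1 log2 unit from the rest of their group, as did 4.69% of all genes. MR mouse 4223 at 3 h had 1676 units of pancreatic markers against at most 47.5 elsewhere, and MR mouse 4214 at 6 h had 626 units of adrenal markers against at most 188. In neither of these did any member lie more than 1 log2 unit from the rest of its group. In whole liver, fewer cells of a type and less RNA per cell cannot be told apart.

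The first comparison asks which carriers respond to methionine restriction within 6 h. None of the 156 members passed the test at 6 h, where 67 of 9049 genes (0.74%) did. At an unadjusted p under 0.05 there were 10 members, against 14.2% of all genes. The groups did not overlap for 2 members, Slc6a9 and Slc26a1, a share of 1.28% beside 1.6% of all genes. The members' median log2 fold change was 0.02, beside 0.01 over all genes. Without mouse 4238, 2 members passed, Slc6a9 and Slc1a4, beside 0.564% of all genes. The widest differences were in the class that the label leaves aside, the amino acid carriers.

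**Figure D1:**
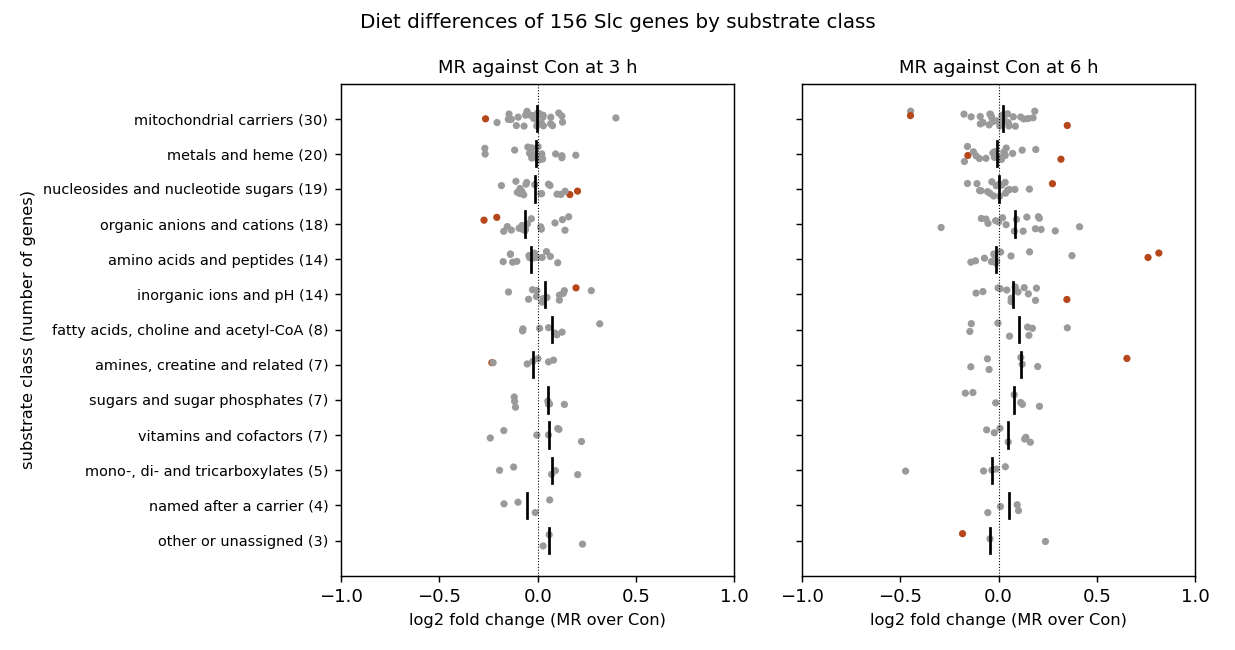
Log2 fold change of MR over Con for each of the 156 genes (1 point each) at 3 h (left) and 6 h (right), in rows by substrate class, with the number of genes in brackets. Black bars are class medians, and red points have an unadjusted p under 0.05 (7 genes at 3 h, 10 at 6 h). Most genes lie close to 0 at both times, and the farthest to the right at 6 h are the amino acid carriers Slc1a4 (0.81) and Slc6a9 (0.76).

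Slc6a9 encodes GlyT1, a glycine transporter of the plasma membrane, and spans bases 117835258 to 117869305 of chromosome 4 (GRCm38). Its lowest, median and highest levels at 6 h were 9.13, 24.8 and 26.5 units in Con and 32.1, 35.6 and 45.5 units in MR. All 6 MR mice were above all 6 Con mice. The means were 22.1 ± 6.53 (SD, n = 6) and 36.5 ± 4.99 units (SD, n = 6). The log2 fold change was 0.76 (standard error 0.19, adjusted p = 0.0582 from limma). The exact permutation test over the 12 mice gave an unadjusted p = 0.00216, the smallest it can give. Any groups of 6 without overlap give this value. The lowest value, 9.13, is that of Con mouse 4238, and the other 5 Con mice held 22.1 to 26.5 units. Without this mouse the log2 fold change was 0.54 with an adjusted p of 0.0373, and over the 20 alternatives tried the adjusted p ran from 0.0373 to 0.182. At 3 h the diets overlapped, with means of 23.0 ± 4.39 and 24.7 ± 4.25 units for Con and MR (SD, n = 6 each).

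Slc1a4 encodes ASCT1, an exchanger of alanine, serine, cysteine and threonine, on chromosome 11 from 20302180 to 20332713. At 6 h it ranged from 3.12 to 10.96 units with a median of 5.62 in Con, and from 6.81 to 21.4 units with a median of 10.2 in MR. The groups overlapped through Con mouse 4238, which was the highest Con mouse at 10.96 units. The log2 fold change was 0.81 (standard error 0.24, adjusted p = 0.114 from limma). Leaving out mouse 4238 raised it to 0.98 with an adjusted p of 0.0409. For Slc6a9 and Slc1a4 this mouse lay on opposite sides of its group. At 3 h all 12 mice held between 1.01 and 3.07 units, where rounding to whole units leaves 3 possible levels before scaling.

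Sequence is shown for the members with a match to the amino acid response element. This site, at which ATF4 is known to act, has a simple form. The 300-base windows around transcription starts in RefSeq (GRCm38.p6, from 250 bases before to 50 after the start) were available for 120 of the 156 members. The element was searched as TGATGNAA on both strands. It was found in at least 1 window of 5 members (4.17%), beside 2.74% of 7044 measured genes with a window and 3.97% of all 32851 windows. These 5 stretches of 30 bases are read on the strand of the gene, with the match in capitals:
Slc1a4, chr11:20332699-20332728, minus strand: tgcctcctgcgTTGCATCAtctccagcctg
Slc7a7, chr14:54417927-54417956, minus strand: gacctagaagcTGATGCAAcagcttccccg
Slc17a1, chr13:23868906-23868935, plus strand: tcagaacgtcaTGATGCAAtagacaataga
Slc50a1, chr3:89270741-89270770, minus strand: agtggtctcgaTGATGCAAggggtgcgcag
Slc15a5, chr6:138079872-138079901, minus strand: ttcatcataaaTGATGAAAaaacaccctta
In Slc1a4 the match lies on the reverse strand and spans the annotated start, from base -4 to base 4. Slc7a7 has a second match farther upstream. The other 4 genes gave log2 fold changes at 6 h of 0.16 (Slc7a7), 0.14 (Slc17a1), -0.17 (Slc50a1) and 0.37 (Slc15a5), none past the test, with adjusted p of 0.672, 0.556, 0.434 and 0.572 from limma. The value of Slc15a5 rests on Con mouse 4238, which holds 0 units against 4.06 to 5.14 in the other Con mice, and without it the log2 fold change is -0.04. Without that mouse Slc7a7 has 0.29 and Slc17a1 has 0.09. Slc6a9 has 3 windows, and the letters are in none of them. A match describes letters only and is no evidence that the factor binds there.

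Slc26a1 encodes Sat1, which exchanges sulfate, the end product of methionine and cysteine sulfur, for other anions. It lies on chromosome 5 from 108669878 to 108678380. At 6 h its lowest, median and highest levels were 9.14, 10.7 and 11.3 units in Con and 12.3, 13.9 and 14.8 units in MR, so that every MR mouse was above every Con mouse. The means were 10.5 ± 0.839 (SD, n = 6) and 13.7 ± 0.973 units (SD, n = 6). The log2 fold change was 0.35 (standard error 0.10, adjusted p = 0.114 from limma). The exact permutation test gave an unadjusted p of 0.00216, which restates the lack of overlap and adds nothing to it. With a fit to the 12 mice of 6 h alone the adjusted p was 0.0418, and over all 20 alternatives it ran from 0.0418 to 0.277. Mouse 4238, at 10.04 units, lay within its group. At 3 h both groups ran from about 7.70 to 12.7 units, with means of 9.77 in Con and 9.97 in MR.

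Its 2 promoter windows hold the antioxidant response element, searched as TGACNNNGC. A match was found in 30 members (25%), beside 17.5% of the measured genes and 12.4% of all windows. One of its windows also holds the E-box CACGTG, found in 22 members (18.3%), 12.3% of the measured genes and 7.15% of all windows. Matches describe letters only, and a role of these motifs was not tested. Those of Slc26a1 and Slc6a9, whose diet groups did not overlap at 6 h, are shown with the matched letters in capitals:
Slc26a1, first window, chr5:108675407-108675436, minus strand: ggaaaacccaTGACTCAGCtatcttttggg
Slc26a1, second window, chr5:108674785-108674814, minus strand: cagtaccacaGCAAGGTCAgaaggggctag
Slc26a1, second window, chr5:108674826-108674855, minus strand: gaccaaggccatCACGTGgtcagcacagcc
Slc6a9, second window, chr4:117849294-117849323, plus strand: tgaaagtaatTGACGCTGCccagcccggca
Slc6a9, last window, chr4:117855492-117855521, plus strand: gtttccggctTGACTTGGCtgcttggtatg
In Slc26a1 the matches begin at base -61 of the first window and at bases -8 and -47 of the second. Both matches of Slc6a9 lie close before a start, at bases -46 and -45.

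The other members with an unadjusted p under 0.05 at 6 h showed smaller differences or a wider spread. Slc35d1, which carries UDP-glucuronic acid into the endoplasmic reticulum, ranged from 29.2 to 38.0 units in Con and from 36.0 to 46.5 units in MR, a log2 fold change of 0.27 (adjusted p = 0.191 from limma). Slc25a25, a calcium-dependent carrier of ATP-Mg and phosphate in mitochondria, ranged from 41.6 to 68.5 and from 56.7 to 83.9 units, a log2 fold change of 0.35 (adjusted p = 0.224). Slc30a10, the manganese exporter, ranged from 24.6 to 49.3 and from 42.2 to 62.5 units, a log2 fold change of 0.32 (adjusted p = 0.324), and without Con mouse 4238, the lowest, it had 0.18. In all of these the groups overlapped. Slc17a8, a vesicular glutamate transporter, had a log2 fold change of 0.65 (adjusted p = 0.345), with Con mouse 4238 at 7.30 units and the other Con mice between 28.5 and 53.4. Without that mouse the log2 fold change is 0.26.

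**Figure D2:**
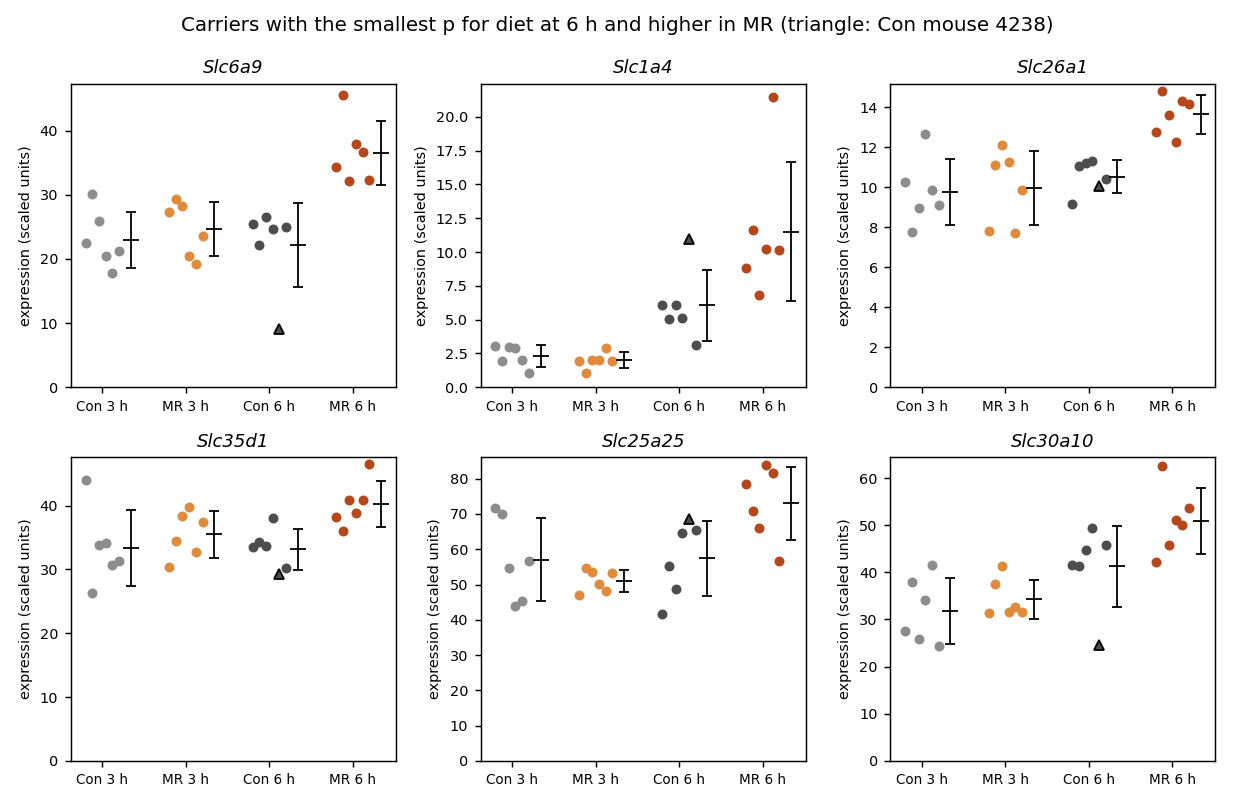
Expression in TMM-scaled units in each of 24 mice (points) for 6 genes, with the mean and SD of each group of 6 to the right of its points; the triangle is Con mouse 4238. At 6 h every MR mouse is above every Con mouse for Slc6a9 and Slc26a1, and at 3 h the diets overlap in all 6 genes.

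Lower values in MR at 6 h were found for 3 members with an unadjusted p under 0.05. Slc35f5, a relative of the nucleotide sugar transporters, ranged from 30.2 to 37.0 units in Con and from 26.6 to 30.4 units in MR, and its log2 fold change was -0.18 (adjusted p = 0.146 from limma). Slc30a5, a zinc transporter of the secretory pathway, had -0.16 (adjusted p = 0.332), and Slc8b1, the mitochondrial sodium-calcium exchanger, had -0.45 (adjusted p = 0.341). In each the diets overlapped.

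On the log2 scale used here, with 1 added, the data limit how large a diet effect could be for most carriers. At 6 h the 95% interval of the log2 fold change lay within 0.5 of 0 for 136 of 156 members, and for 16 of the 19 with a mean of 100 units or more. It did so for 40 of the 45 with a mean under 10. There the added 1 makes fold changes smaller and rounding leaves few values, so the interval does not bound the change in the units themselves. Slc2a2, the glucose transporter GLUT2, held 106 to 320 units in Con and 192 to 321 units in MR at 6 h, and its log2 fold change was 0.21 (adjusted p = 0.583 from limma). The lowest Con value is that of mouse 4238, and without it the log2 fold change is 0.02. Slc27a2, the fatty acid transport protein and very long chain acyl-CoA synthetase FATP2, averaged 1059 ± 202 and 1156 ± 85.2 units on the Con and MR diets (SD, n = 6 each). Slc25a5, the adenine nucleotide translocase ANT2, averaged 876 ± 37.5 and 848 ± 47.5 units (SD, n = 6 each). These are differences within the spread between mice. Carriers of compounds that depend on methionine also gave no call. Slc25a26, which brings S-adenosylmethionine into mitochondria, ranged from 3.02 to 4.16 units in Con and from 2.94 to 4.24 units in MR at 6 h. These levels are near the lowest mean that the table keeps, so the lack of a call says little there. Slc25a39, the mitochondrial glutathione carrier, ranged from 256 to 331 units in Con and from 274 to 366 units in MR. Slc6a6, which takes up taurine, gave a log2 fold change of -0.02, or -0.12 without mouse 4238.

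At 3 h the members held still closer together. None passed the test, and neither did any of the 9049 genes (0%). The count at an unadjusted p under 0.05 was 7 members, beside 6.66% of all genes, and no member's groups were apart, beside 0.199% of all genes. Slc16a12, a creatine transporter, had the smallest p, with 28.7 to 38.8 units in Con, 24.6 to 31.3 units in MR and a difference of -0.23 on the log2 scale (adjusted p = 0.681 from limma). Next came Slc2a9, the urate transporter GLUT9, with a log2 fold change of -0.21, and Slc25a10, the mitochondrial dicarboxylate carrier, with -0.27 (adjusted p = 0.697 for both). The 95% interval lay within 0.5 of 0 for 136 of 156 members at this time too. Among them were 37 of the 45 with a mean under 10, with the same limit.

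The difference between the diet effects at 6 h and at 3 h was then tested. No member passed, where 6 of 9049 genes did (0.0663%). An unadjusted p under 0.05 was found for 10 members, beside 6.83% of all genes. Slc1a4 had the smallest p, with a difference of 0.95 on the log2 scale (standard error 0.33, adjusted p = 0.545 from limma). Slc25a25 had 0.48 (adjusted p = 0.636) and Slc6a9 had 0.66 (adjusted p = 0.645), or 0.43 without mouse 4238.

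A larger share of carriers differed between 3 h and 6 h on the same diet. In Con mice 15 members were higher at 6 h and 17 were lower, 9.62% and 10.9% of the set beside 9.23% and 10.4% of all genes, so that the set was close to the background. In MR mice 33 members were higher (21.2%, beside 13.9% of all genes) and 22 were lower (14.1%, beside 14.2%). The Con and MR comparisons share no mice. The direction matched in 13 members called higher in both, which are 86.7% of the Con list and 39.4% of the MR list, and in 13 called lower in both, 76.5% and 59.1%. Over all genes these shares were 72.7% and 48.2% for higher, and 74% and 54.1% for lower. No member was called in opposite directions. Over all genes 19.6% were called in Con and 28.1% in MR, and the counts by class below are to be read beside these shares. Without mouse 4238 the Con count was 42 (23 higher, 19 lower), of which 29 were among the original 32, while the share of all genes went from 19.6% to 23.1%.

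**Figure D3:**
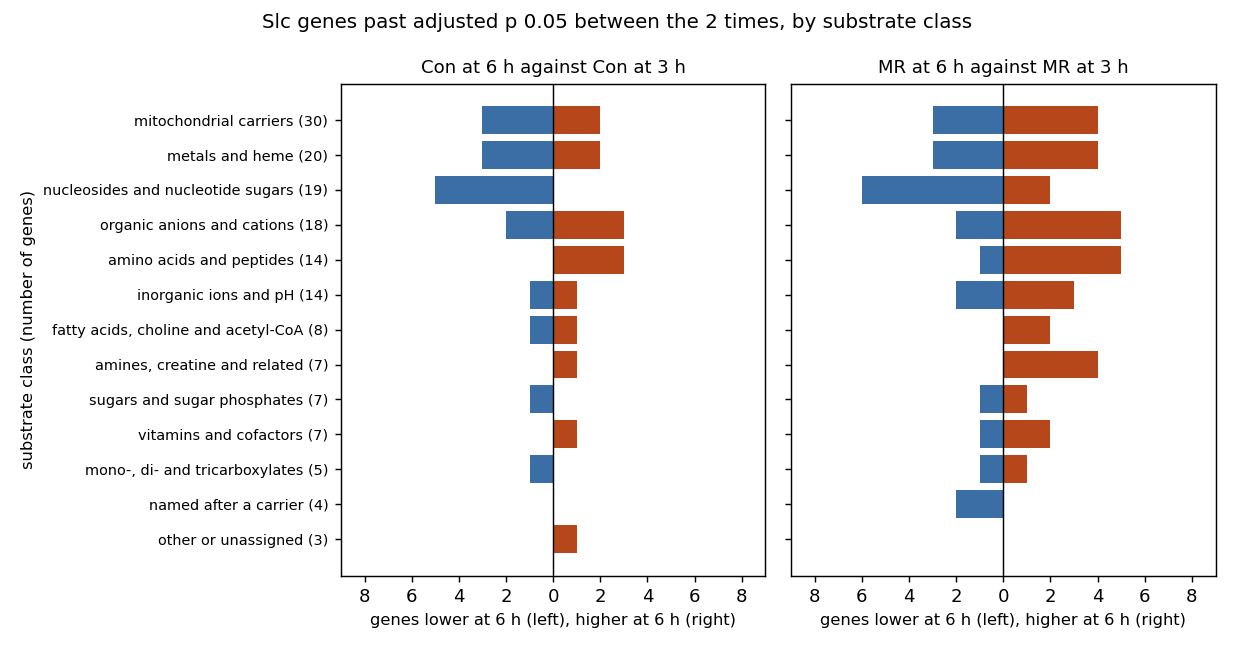
Number of genes in each substrate class (class size in brackets) that passed an adjusted p of 0.05 between 3 h and 6 h in Con (left) and MR (right); bars to the right count genes higher at 6 h and bars to the left genes lower at 6 h. Members placed by hand in the class of nucleosides and nucleotide sugars were lower in 5 of 19 with none higher in Con, beside 10.4% of all genes lower. Carriers of amino acids and peptides were higher in 5 of 14 in MR, beside 13.9% of all genes higher.

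Carriers of sugars and sugar phosphates gave 1 call of 7 in Con (14.3%) and 2 in MR (28.6%). Slc37a4 brings glucose 6-phosphate into the endoplasmic reticulum, where glucose 6-phosphatase releases glucose, and lies on chromosome 9 from 44396946 to 44402966. In Con it ranged from 179 to 229 units with a median of 202 at 3 h, and from 85.8 to 197 with a median of 119 at 6 h. In MR it ranged from 181 to 247 units with a median of 233 at 3 h, and from 108 to 161 with a median of 133 at 6 h. It fell by 0.72 on the log2 scale in Con (standard error 0.13, adjusted p = 0.000539 from limma) and by 0.77 in MR (adjusted p = 0.000116). The MR groups did not overlap, and a single Con mouse, 4241 with 197 units, overlapped the 3 h range. Slc2a1, the glucose transporter GLUT1, rose in MR from 7.15 ± 1.32 to 11.4 ± 1.60 units (SD, n = 6 each, log2 fold change 0.61, adjusted p = 0.00229 from limma). In Con its log2 fold change was 0.37 with an adjusted p of 0.0686. Slc2a2 passed in neither.

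Among carriers of fatty acids, choline and acetyl-CoA, Slc44a1, a choline transporter of the plasma and mitochondrial membranes, had the smallest p of all members on both diets. It lies on chromosome 4 from 53440387 to 53622478. In Con it ranged from 12.9 to 15.8 units at 3 h and from 17.3 to 26.2 units at 6 h, and in MR from 12.7 to 13.8 and from 19.6 to 26.5 units. The times did not overlap on either diet. The log2 fold change was 0.65 in Con (standard error 0.08, adjusted p = 9.9e-06 from limma) and 0.78 in MR (adjusted p = 2.39e-07). Slc33a1, the acetyl-CoA transporter of the endoplasmic reticulum, fell in Con by 0.33 on the log2 scale (adjusted p = 0.0368), a call that was lost in 8 of 20 alternatives. Without Con mouse 4238, at 38.3 units the lowest, the fold change was -0.20 (adjusted p = 0.06735). Slc27a2 and Slc27a5 passed in neither diet. Slc27a5, the bile acyl-CoA synthetase FATP5, held 670 to 903 units in Con at 3 h and 464 to 999 at 6 h, the lowest being mouse 4238.

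Carriers of metals and heme were called 5 times among 20 in Con (25%) and 7 times in MR (35%). Slc30a5 fell on both diets. In Con it ranged from 34.6 to 45.8 units at 3 h and from 25.7 to 32.9 units at 6 h. These do not overlap after scaling but do in the deposited values. In MR it ranged from 34.4 to 44.0 and from 23.3 to 27.6 units, without overlap on either scale, and the log2 fold changes were -0.43 (adjusted p = 0.000147 from limma) and -0.56 (adjusted p = 3.14e-06). Slc39a14, the importer ZIP14 for zinc, iron and manganese, fell as well, from 65.8 ± 9.34 to 52.9 ± 8.23 units in Con and from 75.2 ± 9.93 to 54.0 ± 5.20 units in MR (SD, n = 6 each). Its log2 fold changes were -0.31 (adjusted p = 0.038 from limma, lost in 9 of 20 alternatives, among them at 0.0849 without mouse 4238) and -0.47 (adjusted p = 0.00163). Its relative Slc39a8, the importer ZIP8, rose by 0.31 in Con and 0.25 in MR (adjusted p = 0.00171 and 0.00622 from limma). Slc30a10 rose in MR, from 31.3 to 41.4 units at 3 h to between 42.2 and 62.5 units at 6 h, a log2 fold change of 0.55 (adjusted p = 0.00521 from limma). In Con it was not called with all mice, but without mouse 4238 it rose by 0.49 (adjusted p = 0.00379 from limma). Slc31a1, the copper importer CTR1, held 156 to 191 units at 3 h and 137 to 185 units at 6 h over both diets and gave no call. Slc40a1, the iron exporter ferroportin, gave none either with all mice, but mouse 4238 held 211 units beside 99.5 to 134 in the other Con mice at 6 h. Without that mouse Slc40a1 passed in Con, with a log2 fold change of -0.25 (adjusted p = 0.0372 from limma). Mouse 4238 also had the highest Kupffer cell markers, and their part in its 211 units was not tested.

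Among related genes chosen for their metal role, 1 of 6 metallothioneins and metal response genes fell in Con and 2 of 6 in MR. The metallothionein Mt1 had log2 fold changes of -1.16 in Con and -1.12 in MR (adjusted p = 0.0477 and 0.0432 from limma). Mt2 had -0.15 and -1.13 and passed on neither diet. Of 16 partners and scaffolds of carriers, a separate list, 3 rose and 2 fell in Con, and 3 rose and 3 fell in MR. Hamp is among those that fell, by 0.82 in Con and 1.66 in MR on the log2 scale (adjusted p = 0.00939 and 5.68e-06). It encodes hepcidin, the hormone that removes ferroportin from the membrane. Hfe is among those that rose, by 0.17 in Con and 0.29 in MR.

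Slc30a5 has an E-box match in its promoter window, beginning at base -61, and an antioxidant response element match beginning at base 7. E-boxes are known as sites of the core clock factors, and a part of the clock in these time differences was not tested. Slc37a4 and Slc44a1 have no match to either motif in their windows. The E-box match of Slc30a5 is shown, again in capitals:
Slc30a5, chr13:100833471-100833500, minus strand: gtgaagcgaagcCACGTGtccaccagcgcg
Of the 48 members with a window that were called between the times on either diet, 11 had an E-box, beside 22 of all 120. Of 14 core clock genes measured, 4 rose and 5 fell in Con between 3 h and 6 h, among them Arntl (log2 fold change 0.81) and Nr1d2 (-1.40).

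Vitamin and cofactor carriers were called once among 7 in Con (14.3%) and 3 times in MR (42.9%). Slc19a2, a thiamine transporter, ranged in MR from 46.9 to 67.6 units at 3 h and from 76.2 to 118 units at 6 h without overlap, a log2 fold change of 0.79 (adjusted p = 0.000166 from limma). In Con it went from 66.5 ± 8.74 to 90.4 ± 20.5 units (SD, n = 6 each), a log2 fold change of 0.41 (adjusted p = 0.0418 from limma) that was lost in 9 of 20 alternatives. Mouse 4238 was the lowest Con mouse at 53.0 units, and without it the adjusted p was 0.000841. Slc46a1, the proton-coupled folate transporter, rose in MR by 0.24 (adjusted p = 0.0159), and Slc5a6, the carrier of biotin and pantothenate, fell in MR by 0.43 on the log2 scale (adjusted p = 0.00718).

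**Figure D4:**
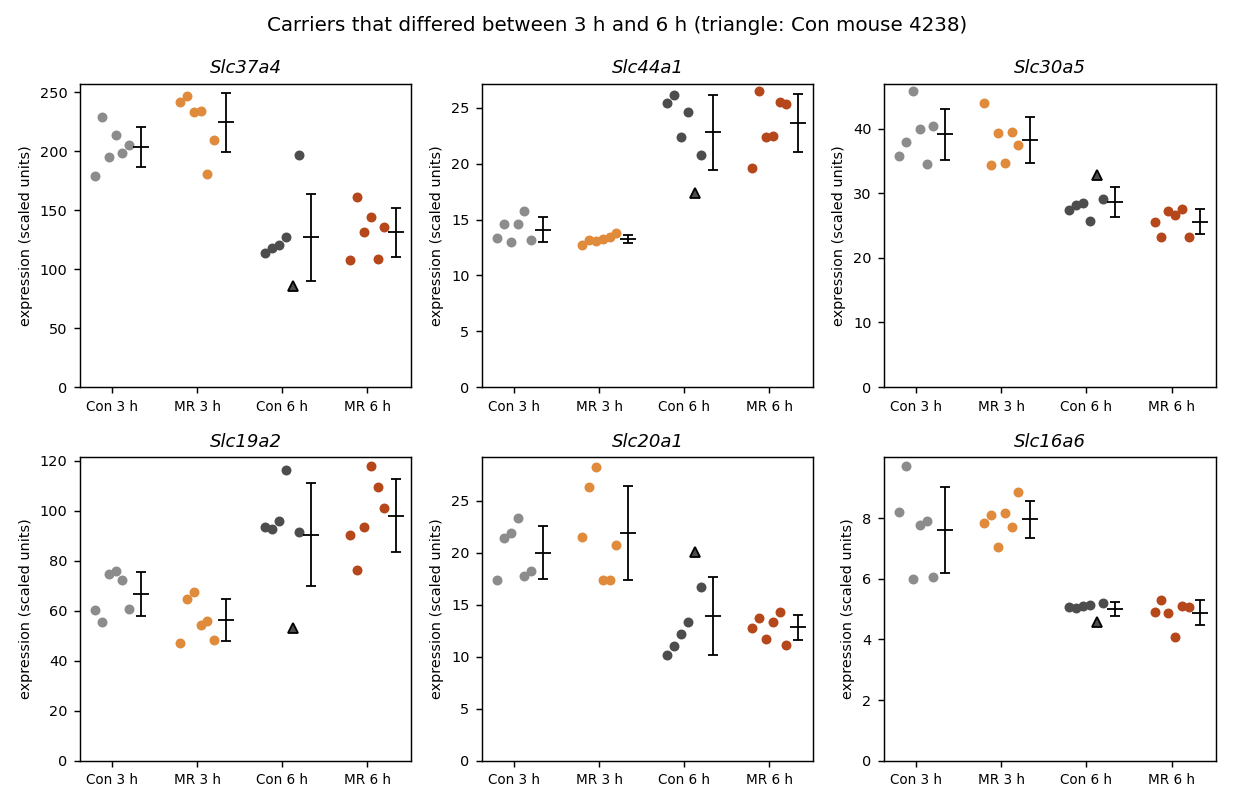
Expression in TMM-scaled units in each of 24 mice (points) for 6 genes called between 3 h and 6 h on both diets, with the mean and SD of each group of 6; the triangle is Con mouse 4238. Slc44a1 and Slc19a2 are higher at 6 h, and Slc37a4, Slc30a5, Slc20a1 and Slc16a6 are lower.

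The class of nucleosides and nucleotide sugars holds most of the Slc35 family and was assigned by hand. Of its members 5 of 19 fell in Con and none rose (26.3%), and in MR 6 fell and 2 rose (42.1%). Slc35f5 was placed in another class, where 1 of 3 rose in Con. Slc35c1, the GDP-fucose transporter, fell by 0.32 in Con and by 0.52 in MR on the log2 scale (adjusted p = 0.00629 and 3.71e-05 from limma). Slc35b4, Slc35e1 and Slc35e3 also fell on both diets, with log2 fold changes between -0.18 and -0.37. Slc17a9, the vesicular nucleotide transporter, fell as well, by 0.55 in Con, a call lost in 8 of 19 alternatives, among them without mouse 4238 (adjusted p = 0.0521). Slc29a1, the equilibrative nucleoside transporter ENT1, had 143 to 227 units over all 24 mice and gave no call.

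Of 30 mitochondrial carriers, 2 rose and 3 fell in Con (16.7%), and 4 rose and 3 fell in MR (23.3%). Both shares are below those over all genes. Slc25a38, which imports glycine for heme synthesis, fell by 0.35 on the log2 scale on both diets (adjusted p = 0.00192 and 0.00121 from limma), and the times did not overlap, apart from a tie in the deposited MR values. Slc25a17, a peroxisomal carrier of adenine nucleotides and coenzyme A that belongs to the same family, rose by 0.26 and 0.24 (adjusted p = 0.00547 and 0.0061). Slc25a51, the NAD carrier, fell in Con (log2 fold change -0.36, adjusted p = 0.017), and Slc25a25 rose in MR (0.50, adjusted p = 0.00447). Slc8b1 rose in Con by 0.72 (adjusted p = 0.0173) and had 0.27 in MR (adjusted p = 0.353). It did not pass the interaction given above, so a difference between the diets is not shown. The abundant carriers of oxidative phosphorylation moved little. Slc25a5 held 797 to 963 units and Slc25a3, the phosphate carrier, 311 to 366 units over all 24 mice, with the 2 lowest spreads between mice in the set (residual SD 0.0614 and 0.062 on the log2 scale, beside a median of 0.169). Slc25a15, the ornithine carrier of the urea cycle, held 207 to 304 units.

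The 2 sodium-phosphate cotransporters of the Slc20 family moved in opposite directions on both diets. Slc20a1, PiT-1, ranged in Con from 17.4 to 23.4 units at 3 h and from 10.2 to 20.1 units at 6 h, and in MR from 17.3 to 28.2 and from 11.1 to 14.3 units. The highest Con value at 6 h was that of mouse 4238. The log2 fold changes were -0.52 (adjusted p = 0.00816 from limma) and -0.71 (adjusted p = 0.000314). Slc20a2, PiT-2, ranged in Con from 32.8 to 36.0 and from 37.4 to 43.8 units, with log2 fold changes of 0.23 in Con and 0.35 in MR (adjusted p = 0.00442 and 5.32e-05). Slc26a1 rose in MR by 0.43 (adjusted p = 0.00227) and had 0.11 in Con (adjusted p = 0.482). Whether its time difference depends on diet is the interaction given above, which it did not pass (adjusted p = 0.677).

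Organic anion and cation carriers gave 5 calls of 18 in Con (27.8%) and 7 in MR (38.9%). Slc22a5, the carnitine cotransporter OCTN2, fell from 16.3 ± 3.29 to 10.98 ± 1.97 units in Con and from 17.6 ± 1.17 to 12.8 ± 2.02 units in MR (SD, n = 6 each), with log2 fold changes of -0.52 and -0.44 (adjusted p = 0.00336 and 0.00684 from limma). Slc17a4, an organic anion transporter, rose by 0.61 in Con and 0.49 in MR (adjusted p = 0.0138 and 0.0342, the latter lost in 7 of 20 alternatives). Slc2a9 rose by 0.26 and 0.46 (adjusted p = 0.0373 and 0.000233), and its Con call was lost in 10 of 20 alternatives. Slc22a7, the anion transporter OAT2, held 71.5 to 143 units in 23 mice and 16.4 units in Con mouse 4238.

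In the class of amino acid and peptide carriers, 3 of 14 were higher at 6 h in Con (21.4%). In MR 5 were higher and 1 was lower (42.9%). Slc1a4 rose by 1.06 in Con and 2.01 in MR on the log2 scale (adjusted p = 0.00272 and 1.4e-06 from limma). Those fold changes rest on 3 h levels of 1.01 to 3.07 units, and in Con the highest 3 h and the lowest 6 h mouse hold the same deposited value before scaling. Slc6a9 rose in MR by 0.55 (adjusted p = 0.0294, lost in 4 of 20 alternatives), and in Con it had -0.11 (adjusted p = 0.733), or 0.12 without mouse 4238. Slc15a3, a lysosomal carrier of peptides and histidine, rose by 0.66 and 0.68 (adjusted p = 0.00355 and 0.00158). Its highest value, 9.13 units, was in mouse 4238, where Kupffer cell markers were also highest, and their part was not tested. Without that mouse it still passed.

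Of the carriers of amines, creatine and related compounds, 1 of 7 was called in Con (14.3%) and 4 in MR (57.1%), all higher at 6 h. Slc6a13, the GABA transporter GAT2, went from 169 ± 13.4 to 206 ± 17.7 units in Con and from 166 ± 11.3 to 224 ± 23.4 units in MR (SD, n = 6 each), with log2 fold changes of 0.29 and 0.42 (adjusted p = 0.0057 and 7.43e-05 from limma). Slc17a8 rose in MR from between 12.7 and 23.2 units to between 42.2 and 61.4 units, a log2 fold change of 1.45 (adjusted p = 0.00118). In Con it had 0.57 (adjusted p = 0.203), and without mouse 4238 its adjusted p was 0.000304. Slc16a6, a monocarboxylate transporter, fell on both diets, by 0.50 and 0.61 on the log2 scale (adjusted p = 0.000197 and 9.59e-06), whereas the lactate and ketone body transporter Slc16a1 passed on neither.

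The residual SD on the log2 scale was over 0.5 for 7 members: Slc16a5, Slc25a30, Slc22a7, Slc17a8, Slc22a28, Slc15a5 and Slc25a47. Among them Slc16a5, Slc25a30, Slc22a28 and Slc15a5 were named after their values were seen. Without Con mouse 4238 only 2 of the 7 remained over 0.5, Slc25a30 and Slc16a5. Slc16a5, a monocarboxylate transporter family member, ranged from 2.03 to 33.8 units in Con at 6 h, the highest in mouse 4238, and from 4.05 to 20.4 units in Con at 3 h. Slc25a47, a liver-enriched mitochondrial carrier, ranged from 142 to 472 units over all mice. For such genes the 95% intervals of the diet effect were wide, with a lowest bound of -1.42 over all members at 6 h.

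Other transport genes are given for comparison, by counts. Of the 7 amino acid transporters that the rule omits, 2 were higher in MR at 6 h, Slc38a2 (log2 fold change 0.87) and Slc3a2 (0.38), with adjusted p of 9.11e-05 and 0.0248 from limma. Of 18 measured ATF4 targets, 10 were higher at 6 h with a median log2 fold change of 1.03, and none passed at 3 h. Of 23 ABC transporters 1 was higher, Abca8b (0.55, adjusted p = 0.045), and of 5 organic anion transporting polypeptides none passed. Between the times, 6 ABC transporters rose in Con and 10 rose in MR, beside 9.23% and 13.9% of all genes. None was lower, and the bile salt export pump Abcb11 was among those that rose (0.78 in MR). Of 5 aquaporins 2 rose and 1 fell on each diet, and Aqp8 had 1.27 in Con and 1.95 in MR (adjusted p = 0.0162 and 0.000305).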

How the data were processed

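Liver RNA (integrity number above 7) had been made into Lexogen QuantSeq 3′ libraries by the authors and sequenced as 50 bp forward reads on a NextSeq instrument. They processed the reads with Lexogen's own QuantSeq pipeline, hosted by Bluebee, and with CLC Genomics Workbench; the submitters' processing notes name GRCm38. How genes were chosen for the deposited tables is not given in the sources used here, nor are aligner settings. The authors deposited a table called raw counts whose columns all sum to 991702 to 995314, so its values are a score, scaled and rounded to whole numbers. Their second table holds the same score divided by 1 factor per library. Neither holds reads, so a count model was not used and depth is unknown.

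The score was scaled by TMM (trims of 30% for log ratios and 5% for mean values, factors 0.945 to 1.10), 1 was added and log2 taken. limma 3.58.1 in R 4.3.3 was fitted to the 24 libraries together, as 4 group means, with a trended and robust prior (statmod 1.5.0); the Benjamini-Hochberg adjustment ran over 9049 genes, with a threshold of 0.05. Single members were also given a two-sided exact permutation test over the 924 divisions of 12 mice, whose smallest p is 0.00216. Nothing states that mice of a group came from separate cages or litters, and p-values measure the spread between these 24 mice. Labels give no batch. Libraries of a group correlated across genes with a Pearson coefficient of 0.96 or more, and no pair of libraries was identical.

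Members and lists were chosen with earlier results of these data known. Genes are named by this rule: members past the threshold in a diet comparison or its interaction, the 10 smallest p of each, up to 12 per direction with the largest changes between times, the 10 highest means, carriers of known liver roles, and up to 3 per class with the smallest p. Others are said to be so or serve a count. Single values of 3 members are not reported here, though counts include them. Substrate classes were assigned by hand from textbook knowledge. All 156 names matched RefSeq, 2 after removal of a numbered suffix, and RefSeq sequences and coordinates are of GRCm38.p6. Promoter motifs were searched on both strands. Besides the motifs in the report, the D-box TTATGNAA was in 6 of 120 members, the metal response element TGCNCNC in 78, and the ROR element in 0. Alternatives were no TMM scaling, the second table, 0.5 or 5 added before log2, genes with a mean of 10 or more, no trend or robust prior, fits of the compared groups alone, and the removal of single mice or of 3 mice together.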

Additional observations from a re-analysis of the deposited data

Results flagged for a closer look

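Within groups of 6, a mouse was marked where its gap to the nearest other mouse took a larger part of the group's range than Dixon's 95% critical value allows. Over 364 groups (91 named members in 4 groups) 33 were marked, and chance marks about 1 in 20. In 13 of the 33 the gap did not pass in the deposited whole values, before scaling. Con mouse 4238 at 6 h accounts for 14. It was the lowest of its group for Slc6a9 (9.13 units), Slc27a5 (464), Slc33a1 (38.3), Slc30a10 (24.6), Slc25a42 (33.8), Slc16a6 (4.56), Slc35b1 (41.1), Slc22a7 (16.4), Slc23a1 (29.2) and Slc15a5 (0 units). For Slc16a6 all 6 deposited values in this group are 5, so that mark comes from scaling alone. It was the highest for the iron exporter Slc40a1 (211), the heme transporter Slc48a1 (42), the glutamate carrier Slc25a22 (94) and Slc16a5 (33.8 units).

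The other 19 were spread over 12 mice. In Con at 3 h they were Slc15a3 in mouse 4215 (1.94 units), Slc6a6 and Slc27a5 in mouse 4220 (54.3 and 670 units) and Slc2a9 in mouse 4217 (16.9 units). In MR at 3 h they were Slc16a1 and Slc15a5 in mouse 4209 (53.5 and 3.03 units) and Slc5a6 in mouse 4204 (4.89 units). In Con at 6 h mouse 4241 was highest for Slc37a4 (197) and Slc35e3 (12.5 units), and mouse 4222 was lowest for Slc5a6 (2.01 units). In MR at 6 h mouse 4239 was highest for Slc1a4 (21.4) and Slc22a23 (43.9 units), mouse 4242 for Slc25a13 (149 units), and mouse 4219 for Slc25a22 (62.5), Slc25a39 (366) and Slc15a5 (6.35 units). Mouse 4219 was lowest for Slc25a32_1 (5.29), mouse 4229 for Slc16a6 (4.09) and mouse 4228 for Slc22a3 (1.95 units).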

How the results depend on the processing

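No member was called for diet at 3 h or for the difference between the diet effects under any alternative run. For diet at 6 h the count of 0 became 1 with the deposited totals in place of TMM, 1 with 5 added before log2 (Slc6a9 in both) and 1 with a fit of the compared groups alone (Slc26a1), and it ran from 0 to 2 when single mice were left out. The 2 were without Con mouse 4238, and without the 3 mice that stand apart it was 0; the cause was not tested. Between the times the count of 32 in Con ran from 27 to 42 and the count of 55 in MR from 48 to 52 when single mice were left out, and a fit of the compared groups alone gave 25 and 59. Without the 3 mice these were 40, with 29 of the original 32, and 56, with 52 of the original 55. Over named members and alternatives 7985 values kept their side of the threshold, 98 lost it, 61 gained it, and no called value changed sign. No paired analysis was possible because the mouse numbers are shared by no group. Depth is unknown, and for the 45 members with a mean under 10 units rounding limits the precision.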
